A study of Mus musculus with 9 samples.

Results

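Circular RNAs (circRNAs, here also called rings) are made when the end of an exon is spliced back to the start of the same or an earlier exon. The rings described here come from 4 host genes of liver sterol and bile acid control, Insig2, Nr1h4, Scp2 and Abca1. They were chosen by the host name given in the deposited circRNA table, with the acetaminophen against control results of these libraries already known. By that rule, 42 of 11312 circRNAs were members: 17 from Scp2, 10 from Abca1, 8 from Insig2 and 7 from Nr1h4, out of 3929 host genes or gene groups. The members held 7920 back-splice reads over all libraries, 0.87% of the total.

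The study profiled bulk liver RNA of WT C57 BL6 mice (age 8 weeks, average weight 20 g) in 3 groups of 3 libraries. Control mice received saline, APAP mice received 500 mg/kg acetaminophen into the peritoneum, and dmPGE2+APAP mice received 300 µg/kg dmPGE2, a methylated analog of prostaglandin E2, by the same route 1 h before that APAP dose. Control libraries are the 3 columns of the table left over once every treated sample had been matched by name. Livers were taken 6 h after APAP, a drug that in overdose injures hepatocytes. The labels do not say whether each library is a separate animal, so p-values measure only the spread between these samples.

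INSIG2 is a membrane protein of the endoplasmic reticulum that holds the SREBP escort SCAP there when sterols are plentiful, which keeps SREBP from switching on cholesterol synthesis. Nr1h4 encodes FXR, the nuclear receptor that senses bile acids and lowers their synthesis in hepatocytes. Scp2 encodes the peroxisomal thiolase SCPx and, from a start inside the gene, the sterol carrier protein SCP2, and Abca1 encodes the pump that loads cholesterol onto apolipoprotein A-I.

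All 4 hosts lie on the minus strand of GRCm38. Insig2 spans chr1:121304353-121332589, Nr1h4 chr10:89454234-89533585, Scp2 chr4:108043839-108144998 and Abca1 chr4:53030787-53159895. The back-splice junctions that the results turn on are shown first, as 30 bases read from GENCODE M21 transcripts, 15 from the end of the last exon in lower case and 15 from the start of the first exon in capitals. The capitals therefore mark the side of the junction that lies earlier in the gene. In order, they are the main Insig2 ring and a shorter form, the main Nr1h4 ring and a rarer ring with the same donor, 4 Scp2 rings that share 2 donors, and the main Abca1 ring with 2 others that share a donor.
Insig2 novel_circ_0006604: gcggcacagcctcagGATTTCTGGTAGGTC
Insig2 novel_circ_0006605: cttttcatctgcctgGATTTCTGGTAGGTC
Nr1h4 novel_circ_0000599: gaattcgaaagagtgGTTTCTTCCGAAGAA
Nr1h4 novel_circ_0000600: gaattcgaaagagtgGTATGCTAACAGAAC
Scp2 novel_circ_0009634: tgcttcccaattcagCTCCTTCAGGACGCA
Scp2 novel_circ_0009636: tgcttcccaattcagGACAAGGTGGAACCC
Scp2 novel_circ_0009656: atatggaaaaatatgGCCAGAAGGCATTGG
Scp2 novel_circ_0009657: atatggaaaaatatgTTCATGAAGCCTGGA
Abca1 novel_circ_0010287: agcatcccaactcaaTGTCAGCTGTTACTG
Abca1 novel_circ_0010284: ctgaagccagttgtgTTAATGACCAGCCAC
Abca1 novel_circ_0010283: ctgaagccagttgtgTGTCAGCTGTTACTG

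Both Insig2 junctions end in the same 15 capitals, because both rings begin at the start of exon 2. The Nr1h4 pair and each Scp2 pair share the lower-case side, so these rings end at the same exon, and the Abca1 rings share 1 side each way. A shared side means that reads can be told apart only by the other side of the junction. Of the 42 rings, 39 were listed as exonic and 3 as intronic. For 35 of the exonic rings both ends lay at exon ends of 1 annotated transcript. Of these, 10 (28.6%) began at exon 2, beside 28.1% of the 9851 rings of all hosts that had exon numbers. The introns beside the 35 rings had a median of 7718 bases upstream and 7769 bases downstream, beside 6495 and 4865 bases over 9831 rings of the whole table. Exon ranges given for rings are the spans between their ends. The deposited features held every annotated exon between the ends for only 12 of the 35 rings.

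**Figure D1:**
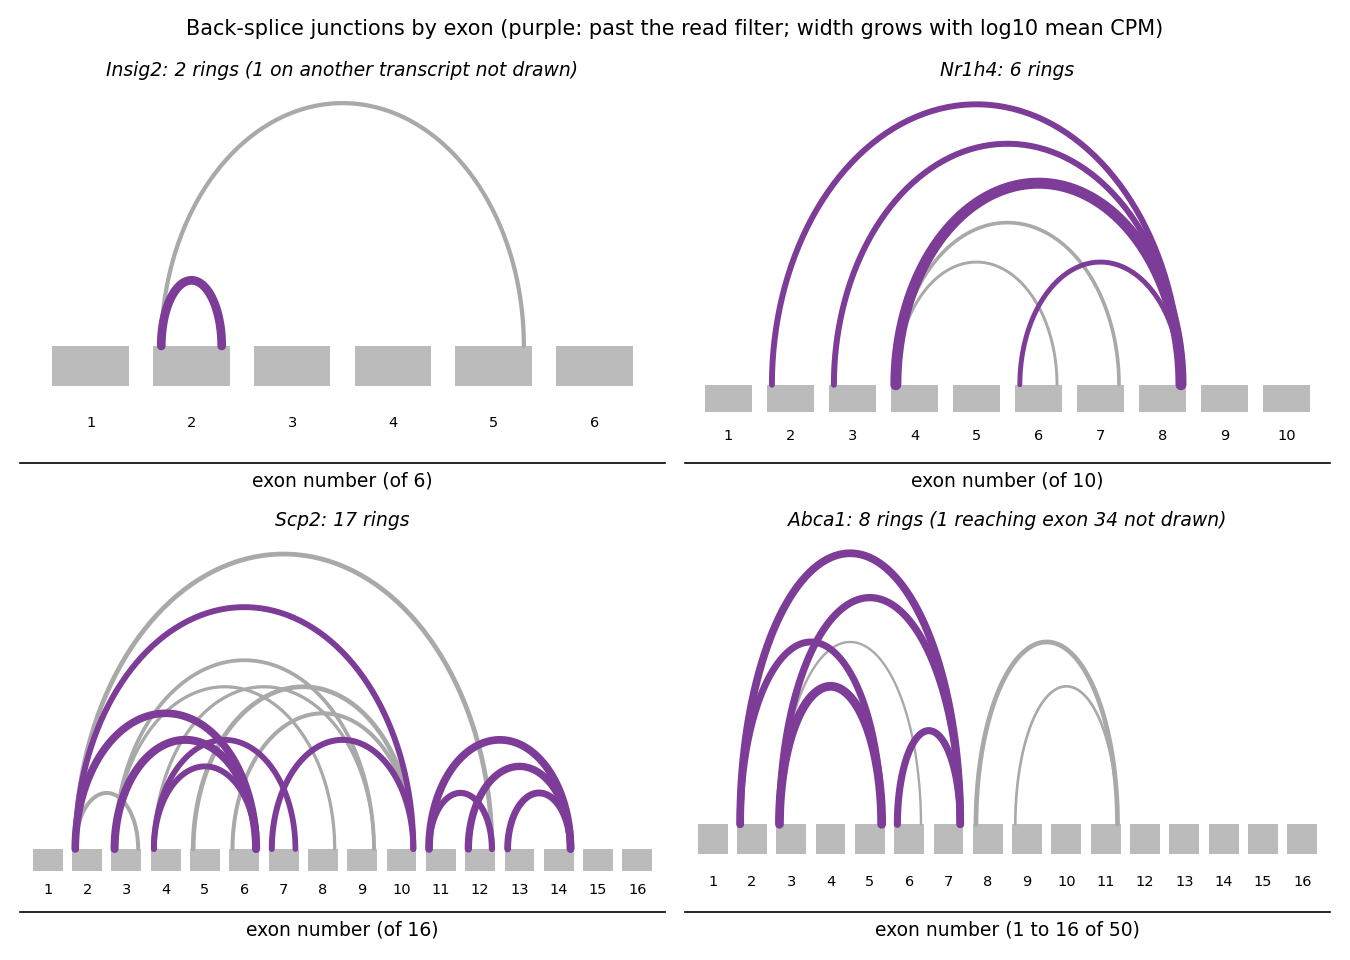
Back-splice junctions of the 4 hosts drawn as arcs from the first to the last exon of each ring, by exon number on the x axis, with arc height only for spacing. Purple arcs passed the read filter and wider arcs had a higher mean CPM, so the Nr1h4 ring over exons 4 to 8 is the widest, while the Scp2 rings spread over exons 2 to 14.

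Depth, and in control 3 a low circular part of the reads, set how far the libraries could be compared. Total back-splice reads ranged from 69268 to 154449 in 8 libraries, which held reads for 3181 to 5214 circRNAs each. Control 3 had 4362 reads and 739 circRNAs, 25.7-fold fewer reads than the median of the others, so a single read there is worth much more after scaling. Among rings with at least 10 readable reads at their sites, back-splice reads were a median of 3.10% of back-splice plus non-junction reads there. In the other 8 libraries that median ran from 14.8% to 20.2%, so control 3 differed in more than depth. The cause was not tested. The smallest count above 0 was 2, so a ring listed at 0 may still have had a read. In bulk liver, fewer cells of a type and less RNA per cell cannot be told apart. Circular RNAs of 6 of 9 hepatocyte marker hosts were present, with no ring listed for Ass1, Serpina1a or Ttr, and their summed level was 0 to 945 CPM in control, 1179 to 1518 in APAP and 1278 to 1413 in dmPGE2+APAP livers, the 0 being control 3. Rings of 4 of 6 sinusoidal endothelium markers summed to 1685 to 1929, 780 to 2043 and 1507 to 1766 CPM, and none of 6 stellate cell markers had a ring. Rings of 1 of 6 Kupffer cell and macrophage markers summed to 0 to 816, 245 to 975 and 696 to 967 CPM. For cholangiocytes 1 of 5 markers had a ring (0 to 231, 183 to 331 and 200 to 464 CPM), and for neutrophils and lymphocytes 1 of 6 (0 to 58.3, 0 to 175 and 60.5 to 183 CPM). The part of these levels in the host results below was not tested.

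The 4 hosts differed in abundance and in how their reads were spread over rings. The level of a host is the sum of its back-splice reads scaled to 1000000 back-splice reads in the library (CPM). Nr1h4 ranked 24th of 3929 hosts with a mean of 4922 CPM over the 9 libraries. Scp2 ranked 107th with 1727 CPM, Abca1 119th with 1560 CPM and Insig2 270th with 792 CPM. The main ring held 95.7% of the reads of Nr1h4, 84.7% of those of Insig2, 46.6% of those of Abca1 and 19.4% of those of Scp2. Among the 359 hosts with at least 7 rings, the median was 45.2%, with quartiles of 34.2% and 61.5%. Of these hosts, 99.2% were less concentrated in 1 ring than Nr1h4 and 94.4% less than Insig2, whereas 0.836% were less concentrated than Scp2.

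Insig2 rings were about 3-fold more abundant in APAP than in control livers, and the livers that also received dmPGE2 lay between. Insig2 had 47 back-splice reads in control 1, 64 in control 2 and 2 in control 3. APAP livers had 133, 138 and 62 reads, and dmPGE2+APAP livers had 92, 75 and 112. Every APAP and every dmPGE2+APAP liver stood higher after scaling than every control liver, as did 8.1% of the 2358 host genes tested for APAP and 8.52% for dmPGE2+APAP.

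Scaled to library totals, Insig2 stood at 304, 492 and 459 CPM in control livers (418 ± 100, SD, n = 3), and at 398 ± 133 CPM without control 3 (n = 2). It stood at 1224, 1261 and 895 CPM in APAP livers (1127 ± 201, n = 3) and at 763, 757 and 976 CPM in dmPGE2+APAP livers (832 ± 125, n = 3). The order of the means was control, dmPGE2+APAP, APAP. The last 2 groups overlapped, since APAP 3 lay below dmPGE2+APAP 3.

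The log2 fold change of Insig2 in APAP against control livers was 1.53 (SE 0.43), a 2.89-fold difference. Insig2 was among the hosts chosen with this contrast known, so this value is a description with no test. In that contrast edgeR called 0.339% of the 2358 host genes tested, a background against which nothing is read for the 4 hosts. Over all the alternatives run, its value lay between 1.32 and 1.86.

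In dmPGE2+APAP against control livers the log2 fold change of Insig2 was 1.11 (SE 0.43, unadjusted 95% interval 0.27 to 1.94), a 2.15-fold difference that did not pass adjustment (edgeR adjusted p = 0.989). This comparison uses the same control livers as the one that chose the host. Against APAP livers, dmPGE2+APAP gave -0.42 (SE 0.38, interval -1.18 to 0.33, edgeR adjusted p = 1.00), an interval that holds both no difference and a fall of more than 1 log2 unit. That comparison in turn uses the APAP livers of the contrast that chose the host, so neither is independent of the choice.

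**Figure D2:**
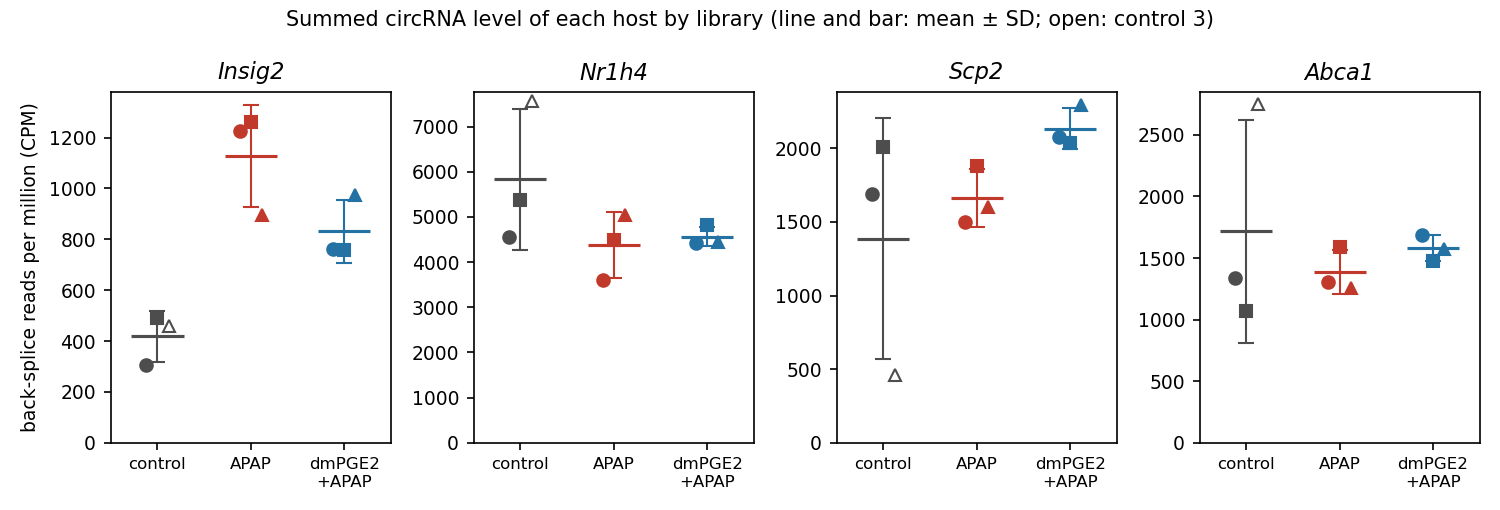
Summed level (CPM, y axis from 0) of each host in the 9 libraries, by group on the x axis; shapes are replicates, horizontal lines and bars are the mean ± SD, and the open symbol is control 3. Insig2 is at 304 to 492 CPM in control livers and at 757 to 1261 CPM in all 6 others, while the other hosts overlap between control and APAP livers.

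A single ring carried the Insig2 level. The main ring, novel_circ_0006604 at chr1:121319597-121319972, is exon 2 of 6 closed on itself, 376 bases that include the annotated start codon. The introns beside it are 7718 and 7271 bases long. It had 36, 55 and 2 reads in control livers, 107, 122 and 62 in APAP livers and 74, 63 and 93 in dmPGE2+APAP livers. In CPM these are 233, 423 and 459, then 985, 1115 and 895, then 614, 636 and 810. The 3 groups did not overlap for this ring: every dmPGE2+APAP liver lay above the controls and below every APAP liver. The control and APAP livers are those of the contrast known when the hosts were chosen, so this order is a description.

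For this ring the dmPGE2+APAP against APAP log2 fold change was -0.49 (SE 0.43, interval -1.32 to 0.35, edgeR adjusted p = 1.00). Against control it was 1.14 (SE 0.47, interval 0.22 to 2.05, edgeR adjusted p = 0.960). Ranges lay fully below those of APAP livers in 4.13% of the 4331 circRNAs tested and fully above those of control livers in 8.1%. In APAP against control livers, where the ring was chosen, 6.93% lay fully above. Over the libraries the ring held between 76.6% (control 1) and 100% (control 3 and APAP 3) of the Insig2 reads.

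The other Insig2 rings were rare. Novel_circ_0006605, at chr1:121319629-121319972, has the same acceptor and a donor inside exon 2 that belongs to another annotated transcript. It was listed at 0 in all 3 control livers, at 8, 4 and 0 reads in APAP and at 11, 0 and 16 in dmPGE2+APAP livers. The other 6 Insig2 rings did not pass the filter of 5 reads in 3 libraries and had at most 9 reads in any library. In all, 6 of the 8 rings used the acceptor at position 121319972, and these held 96.6% of the Insig2 reads.

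Reads on the linear side of the main Insig2 ring could be read in 5 libraries. Circular share is the back-splice reads as a percentage of back-splice plus non-junction reads at the same sites. Of the 42 non-junction lists, 17, the one used here among them, had lost their separators in the deposited table and were read on the assumption that each item has 3 digits, and 13 could not be read. For the main Insig2 ring, non-junction reads were 232 and 202 in control 1 and 2 and 597, 472 and 289 in APAP livers. The circular share was 13.4% and 21.4% in control 1 and 2 and 15.2%, 20.5% and 17.7% in APAP livers, with overlapping 95% Wilson intervals from 9.86% to 26.8%. The APAP values lay within the range of the control values, while the medians over all rings of these 5 libraries ran from 14.8% to 20.2%. These shares are descriptions, since they come from the contrast that chose the host. The non-junction values of the dmPGE2+APAP livers were lost in the deposited table for this ring. Here and below, the intervals cover counting error only.

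Nr1h4 rings were the most abundant of the 4 hosts, and their summed level overlapped between all groups. The host had 702, 699 and 33 reads in control livers, 391, 491 and 349 in APAP livers and 533, 477 and 511 in dmPGE2+APAP livers. These are 4545, 5378 and 7565 CPM, then 3598, 4486 and 5038 CPM, then 4422, 4813 and 4452 CPM. The group means were 5830 ± 1560 CPM in control (4962 ± 589 without control 3), 4374 ± 727 in APAP and 4562 ± 218 in dmPGE2+APAP livers (SD, n = 3, and n = 2 without control 3). All 3 groups overlapped, and no neighbours in the order of the means were apart.

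The log2 fold change of Nr1h4 was -0.19 (SE 0.23) in APAP against control, given as a description. It was 0.09 (SE 0.23, interval -0.36 to 0.53, edgeR adjusted p = 1.00) in dmPGE2+APAP against APAP and -0.10 (SE 0.23, interval -0.56 to 0.36, edgeR adjusted p = 1.00) against control. The first of these had the other sign, -0.02, without APAP 1.

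Almost all Nr1h4 reads came from novel_circ_0000599 at chr10:89473752-89483524, which runs from exon 4 to exon 8 of 10 and holds 636 bases when every exon between is kept. The ring had 678, 658 and 33 reads in control livers, 391, 471 and 330 in APAP livers and 511, 456 and 477 in dmPGE2+APAP livers, between 93.3% and 100% of the host's reads in each library. Its flanking introns are 14524 and 17107 bases long. It was also the most circular of the 3 main rings whose shares could be read. Its circular share was 67.5% and 70.4% in control 1 and 2 and 67.6%, 72.1% and 72.8% in APAP livers, above 91.2% to 94.8% of the rings with at least 10 reads at their sites in the same library. The Wilson intervals of these 5 values overlapped, from 63.7% to 76.7%.

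Of the 6 rarer Nr1h4 rings, 3 shared the donor of the main ring. With it, 4 of the 7 rings ended at position 89473752 and together held 99.4% of the reads. Novel_circ_0000600, which begins at exon 3, had 3, 26 and 0 reads in control, was listed at 0 in all APAP livers and had 11, 9 and 24 reads in dmPGE2+APAP livers. The dmPGE2+APAP range lay above that of APAP livers, as in 5.03% of circRNAs, but the ring was not called (edgeR adjusted p = 1.00), and no fold is given against a group at 0. Its circular share was 0.763% in control 1 (3 back-splice reads), 8.02% in control 2 and 5.58%, 4.39% and 12.5% in the dmPGE2+APAP livers, so the dmPGE2+APAP values lay above the first control and on both sides of the second.

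Novel_circ_0000601, which begins at exon 2 and holds the start codon, had 4, 4 and 0 reads in control livers, 0, 4 and 19 in APAP livers and 11, 5 and 8 in dmPGE2+APAP livers. Novel_circ_0000598, from exon 6 to exon 8, had 9, 0 and 0, then 0, 11 and 0, then 0, 7 and 2 reads. Both overlapped between APAP and dmPGE2+APAP livers. For novel_circ_0000601 the dmPGE2+APAP values, 91.3, 50.5 and 69.7 CPM, lay above the control values of 25.9, 30.8 and 0 CPM, as in 8.1% of circRNAs, without a call (edgeR adjusted p = 1.00). The 3 other Nr1h4 rings had at most 8 reads in any library and did not pass the filter.

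Scp2 reads were spread over many rings, and the host sum was higher in every dmPGE2+APAP liver than in any other. Scp2 had 261, 261 and 2 reads in control livers, 163, 206 and 111 in APAP livers and 250, 202 and 263 in dmPGE2+APAP livers. These are 1690, 2008 and 459 CPM in control livers, with a mean of 1386 ± 818 CPM (n = 3), or 1849 ± 225 CPM without control 3 (n = 2). APAP livers had 1500, 1882 and 1602 CPM (1662 ± 198), and dmPGE2+APAP livers had 2074, 2038 and 2291 CPM (2135 ± 137, SD, n = 3). The gap depended on 1 ring, novel_circ_0009634, which gave 456 CPM in dmPGE2+APAP 1 and 453 in dmPGE2+APAP 3. It was listed at 0 in all APAP livers. Without that ring, the sums of dmPGE2+APAP 1 and 3 would lie inside the APAP range and below control 2.

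The log2 fold change of Scp2 in dmPGE2+APAP against APAP was 0.38 (SE 0.30, interval -0.21 to 0.97, edgeR adjusted p = 1.00), although its range lay fully above that of APAP livers, as in 5.47% of all hosts tested. Against control it was 0.45 (SE 0.31, interval -0.15 to 1.05, edgeR adjusted p = 1.00), again with its range fully above, as in 8.52% of hosts. That value was 0.17 without control 3 and 0.72 without control 2. No host was called among the 4 in either comparison by edgeR, DESeq2 or limma-voom, beside 0.127% and 0.17% of the 2358 hosts with edgeR. At an unadjusted edgeR p under 0.05 there were 0 and 1 (Insig2), beside 64 and 100 of all 2358 hosts. In APAP against control the Scp2 value was 0.07 (SE 0.31), and it was -0.20 without control 3.

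**Figure D3:**
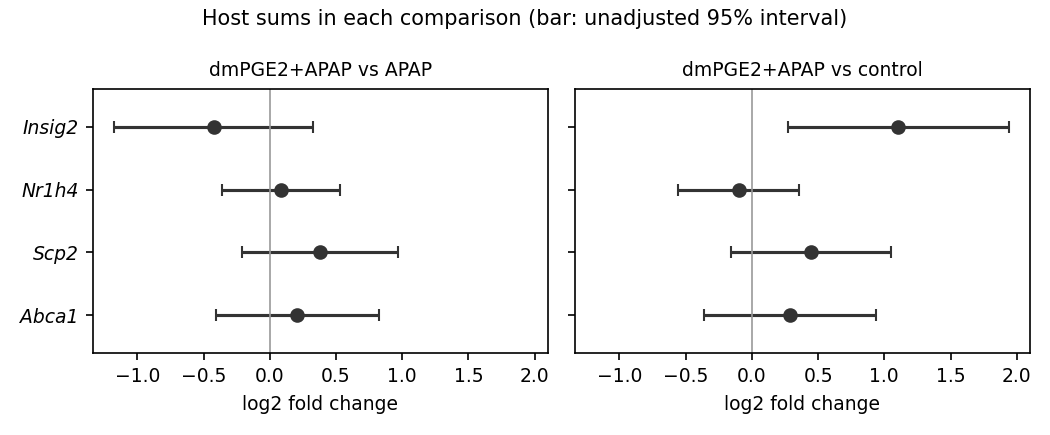
Log2 fold changes of the 4 host sums (x axis) in dmPGE2+APAP against APAP and against control livers, from the edgeR fit over all 9 libraries, with unadjusted 95% intervals as bars. Insig2 against control, 1.11 with an interval from 0.27 to 1.94, is the only value whose unadjusted interval leaves out 0.

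No Scp2 ring dominated. The ring with most reads was novel_circ_0009656 at chr4:108098022-108107688, from exon 3 to exon 6 of 16. It had 0, 71 and 2 reads in control livers, 54, 36 and 21 in APAP livers and 49, 58 and 43 in dmPGE2+APAP livers. Control 1, the deepest library, was thus listed at 0 for this ring while control 2 had the highest count. The ring gave a log2 fold change of 0.30 (SE 0.52, edgeR adjusted p = 1.00) in dmPGE2+APAP against APAP. Against control it was 0.79 (SE 0.55, edgeR adjusted p = 1.00), and without control 2 it was 4.59 with an edgeR adjusted p of 0.0297. The controls left in that fit were control 1, listed at 0, and control 3, with 2 reads, so its call rested on these.

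Novel_circ_0009636 (exons 11 to 14) and novel_circ_0009657 (exons 2 to 6) were the next in reads and were steadier. The first had 69, 47 and 0 reads in control livers, 22, 32 and 23 in APAP livers and 40, 32 and 39 in dmPGE2+APAP livers. The second had 59, 43 and 0, then 25, 19 and 28, then 40, 28 and 35 reads. In CPM the groups overlapped for both rings. Novel_circ_0009635 (exons 12 to 14) had 31, 14 and 0 reads in control livers, 25, 34 and 26 in APAP livers and 17, 26 and 35 in dmPGE2+APAP livers.

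Another Scp2 ring was either present at about 50 reads or listed at 0. Novel_circ_0009634, at chr4:108055439-108063988, joins exon 14 back to exon 13. It had 51 reads in control 1, 55 in dmPGE2+APAP 1 and 52 in dmPGE2+APAP 3, and was listed at 0 in the other 6 libraries. Where present it made up 19.5%, 22.0% and 19.8% of the Scp2 reads.

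In dmPGE2+APAP against APAP livers it was called higher (edgeR adjusted p = 0.000138), 1 of 21 members tested, beside 0.0231% of 4331 circRNAs. This call is not independent of how the members were chosen, because the APAP livers, all at 0, are also those of the contrast known at that point. The ring also passed the filter only through the 3 libraries that held it. No fold is given, since the APAP livers were all listed at 0, and dmPGE2+APAP 2 was also at 0, so the ranges touched. The call was lost with limma-voom (adjusted p = 0.438), with a filter of 10 reads (edgeR adjusted p = 0.110) and in a fit of only the 2 groups (edgeR adjusted p = 0.0518), and DESeq2 gave no adjusted p. Without control 1, dmPGE2+APAP 1 or dmPGE2+APAP 3 the ring no longer passed the filter. In dmPGE2+APAP against control it was not called (edgeR adjusted p = 1.00), and none of the 21 members was by edgeR, DESeq2 or limma-voom, beside 0.115% of circRNAs with edgeR. At an unadjusted edgeR p under 0.05 there were 2, both from Insig2, beside 188 of all 4331 circRNAs. In APAP against control 1 member, this ring, was called lower, beside 0.0462% of circRNAs, a contrast from which members were chosen and nothing is read here.

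The circular share of novel_circ_0009634 was 53.7% in control 1 (44 non-junction reads), 54.5% in dmPGE2+APAP 1 (46) and 57.1% in dmPGE2+APAP 3 (39), with Wilson intervals from 43.7% to 66.8%. It was higher than that of the other Scp2 rings whose values could be read, all rare rings seen in 1 library only. Those were novel_circ_0009648 with 6 back-splice and 9449 non-junction reads (0.0635%) in dmPGE2+APAP 2, novel_circ_0009649 with 10 and 5218 (0.191%) in APAP 2, and novel_circ_0009650 in APAP 3 (0.101%). The high share of novel_circ_0009634 thus went with far fewer non-junction reads. Its deposited features hold 308 bases, 75.6% of them coding, beside 233 bases in the annotated exons 13 and 14. Why so few non-junction reads were listed was not tested, so the share is not read as the circular part of Scp2 RNA. Its level beside novel_circ_0009635 and novel_circ_0009636, which share its donor at position 108055439, could not be set on this scale, because the lists of 13 of the 17 Scp2 rings were lost.

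Of the other Scp2 rings past the filter, novel_circ_0009638 (exons 11 and 12) had 0, 21 and 0 reads in control livers, 10, 17 and 6 in APAP livers and 13, 8 and 6 in dmPGE2+APAP livers. Novel_circ_0009644 (exons 7 to 10) had 13, 5 and 0, then 12, 0 and 0, then 12, 18 and 11 reads. Novel_circ_0009647 (exons 2 to 10) had 14, 18 and 0, then 0, 13 and 0, then 11, 0 and 13 reads. None of these was called, and each was listed at 0 in at least 2 libraries. In CPM the dmPGE2+APAP range of novel_circ_0009644 lay above that of the controls, as in 8.1% of circRNAs.

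Novel_circ_0009652 (exons 4 to 7) had 11, 12 and 0 reads in control livers, 3, 14 and 0 in APAP livers and 10, 7 and 2 in dmPGE2+APAP livers. Novel_circ_0009655 (exons 4 to 6) had 0, 20 and 0, then 7, 14 and 0, then 0, 12 and 11 reads. The 7 Scp2 rings that did not pass the filter had at most 17 reads in a library, and 3 of the 17 rings were seen in 1 library only. Scp2 thus gave 10 of the 21 members past the filter, beside 5 from Abca1, 4 from Nr1h4 and 2 from Insig2.

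The Scp2 rings also divide by the start of the short transcript that encodes the sterol carrier protein alone. Rings upstream of that start, 12 in number, held 54.8% of the pooled Scp2 reads, 3 rings that span it held 23.9%, and 2 rings inside the short transcript, novel_circ_0009634 and novel_circ_0009635, held 21.3%. This division is by position only and does not say which transcript gave a ring. Novel_circ_0009635 begins at position 108071410, at exon 12 of the long transcript, behind an intron of 2945 bases. The short transcript starts inside that intron, at position 108071419, so it lacks most of that intron. The inside share was 31.4% and 5.36% in control 1 and 2, 15.3%, 16.5% and 23.4% in APAP, and 28.8%, 12.9% and 33.1% in dmPGE2+APAP livers. It was highest in the 3 libraries that held novel_circ_0009634, and the groups overlapped.

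Abca1 rings came mainly from exons 2 to 7, and their summed level overlapped between all groups. The host had 206, 139 and 12 reads in control livers, 142, 174 and 87 in APAP livers and 203, 146 and 181 in dmPGE2+APAP livers. These are 1334, 1069 and 2751 CPM, then 1307, 1590 and 1256 CPM, then 1684, 1473 and 1577 CPM. The means were 1718 ± 904 CPM in control (1202 ± 187 without control 3), 1384 ± 180 in APAP and 1578 ± 105 in dmPGE2+APAP livers (SD, n = 3, and n = 2 without control 3). Without control 3 the dmPGE2+APAP livers lay above both controls, and that order depends on a library with 12 Abca1 reads. How many other hosts did so against 2 controls was not counted, and against all 3 controls 8.52% of hosts did.

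The log2 fold change of Abca1 was 0.08 (SE 0.33) in APAP against control, given as a description, and took the other sign without TMM scaling (-0.03), without control 2 (-0.10) and without APAP 2 (-0.07). It was 0.21 (SE 0.31, interval -0.41 to 0.82, edgeR adjusted p = 1.00) in dmPGE2+APAP against APAP and 0.29 (SE 0.33, interval -0.36 to 0.94, edgeR adjusted p = 1.00) against control, the latter falling to 0.12 without control 2.

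The main Abca1 ring, novel_circ_0010287 at chr4:53127597-53133015, runs from exon 3 to exon 5 of 50. It had 97, 78 and 5 reads in control livers, 75, 68 and 42 in APAP livers and 93, 63 and 80 in dmPGE2+APAP livers, 39.1% to 56.1% of the host's reads. It lies between introns of 10914 and 18311 bases. Its circular share was 27.6% and 27.8% in control 1 and 2 and 19.7%, 27.0% and 11.4% in APAP livers. The Wilson interval of APAP 3 (8.58% to 15.1%) lay below those of both control livers (22.8% to 33.3%), whereas that of APAP 2 overlapped them. The median over all rings of APAP 3 was 17.6%, within the range of the other APAP livers and close to the controls at 19.3% and 20.2%.

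Novel_circ_0010284 (exons 2 to 7, with the start codon) had 32, 22 and 4 reads in control livers, 19, 43 and 8 in APAP livers and 31, 18 and 28 in dmPGE2+APAP livers. Novel_circ_0010283 (exons 3 to 7) had 36, 17 and 0, then 34, 11 and 10, then 21, 37 and 36 reads. The circular shares of these 2 rings were also lowest in APAP 3, at 2.09% and 1.99%, beside 14.3% and 14.9% in control 1 and 11.8% and 8.21% in control 2. In APAP 2 they were 16.2% and 4.38%, and in APAP 1 6.88% and 9.19%.

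Novel_circ_0010282 (exons 6 and 7) had 23, 11 and 0 reads in control livers, 9, 37 and 17 in APAP livers and 24, 24 and 24 in dmPGE2+APAP livers. In CPM its control values were 149, 84.6 and 0, and the dmPGE2+APAP values, 199, 242 and 209, lay above them all, as in 8.1% of circRNAs, without a call (edgeR adjusted p = 1.00). Novel_circ_0010288 (exons 2 to 5) had 15, 0 and 3, then 2, 4 and 10, then 30, 4 and 5 reads. The circular shares of these 2 rings were not lowest in APAP 3. Novel_circ_0010282 had 8.65% and 6.4% in control 1 and 2 and 3.03%, 16.6% and 4.94% in APAP livers, and novel_circ_0010288 had 0.840%, 2.34% and 4.59% in APAP livers. None of the 5 tested Abca1 rings was called in dmPGE2+APAP against APAP or against control. The 5 others had at most 11 reads in a library. The acceptor at position 53133015, the start of exon 3, was used by 4 of the 10 rings with 62.7% of the reads.

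**Figure D4:**
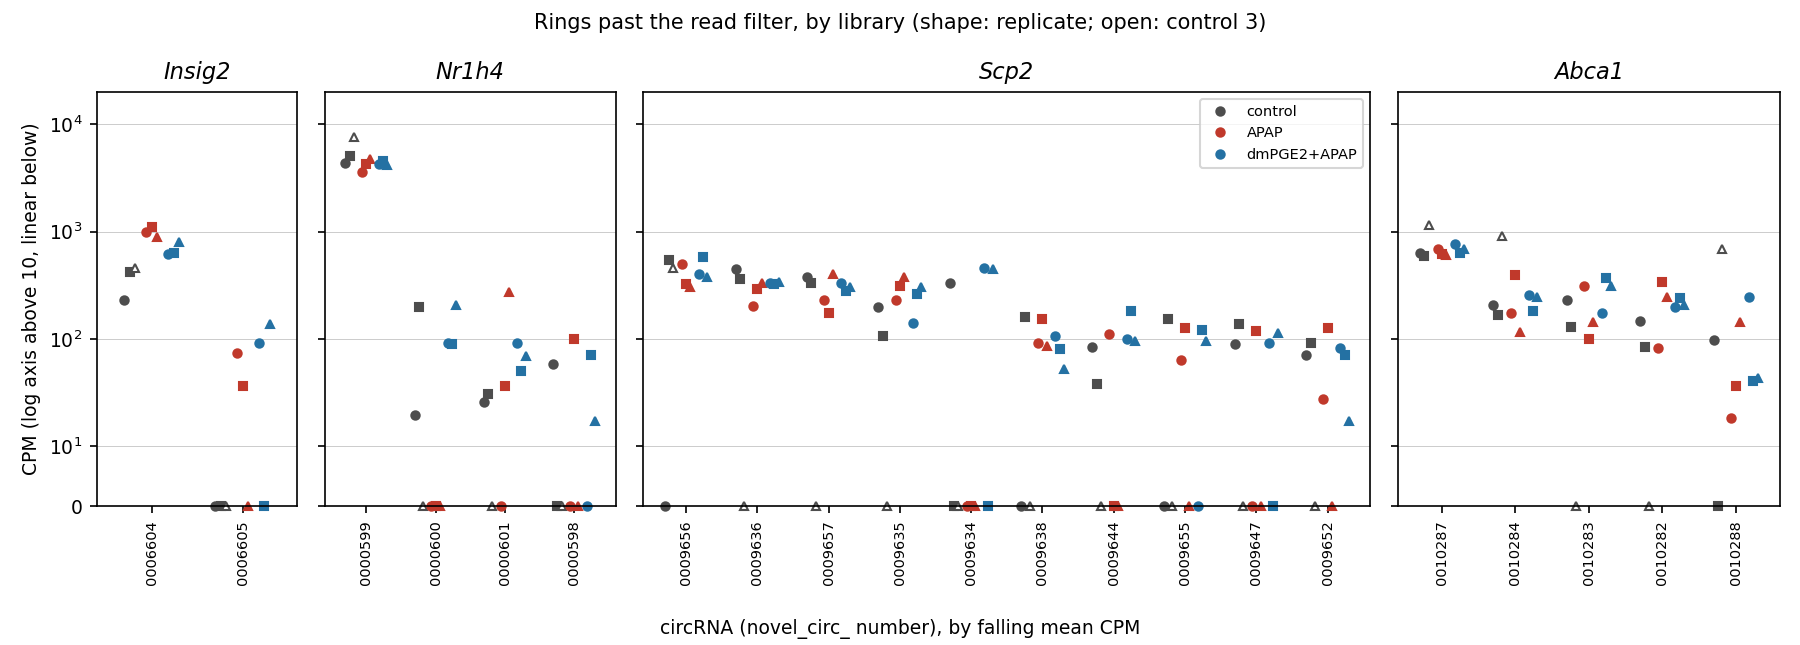
CPM (y axis, logarithmic above 10 and linear below) of the 21 rings past the filter, by ring on the x axis and by host; colours are groups, shapes are replicates and open symbols are control 3. Points at the bottom are rings listed at 0: novel_circ_0009634 of Scp2 has 3 libraries at 330 to 456 CPM and 6 at 0, while novel_circ_0000599 of Nr1h4 lies above all other rings in every library.

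Whether reads moved from ring to ring within a host was tested with edgeR's diffSpliceDGE over the 915 hosts with at least 2 tested rings. No host was called in any comparison (0% of 915), and 43 hosts in dmPGE2+APAP against APAP and 40 against control had an unadjusted p under 0.05 (47 in APAP against control). Among the members, dmPGE2+APAP against APAP gave unadjusted p-values of 0.0157 for Nr1h4, 0.0163 for Scp2, 0.505 for Insig2 and 0.929 for Abca1, and all adjusted p-values were 1.00 for edgeR's test. Without dmPGE2+APAP 2, the liver in which novel_circ_0009634 is at 0, the adjusted p of Scp2 was 0.0486. Against control the unadjusted p-values of the edgeR test were 0.0730 for Insig2, 0.831 for Nr1h4, 0.988 for Scp2 and 0.821 for Abca1. The rings that differed most from the others of their host in dmPGE2+APAP against APAP were novel_circ_0009634 (edgeR adjusted p = 0.0678) and novel_circ_0000600 (edgeR adjusted p = 1.00). Both were listed at 0 in all APAP livers, which are those of the contrast known when the hosts were chosen. The first passed the filter only through the 3 libraries that held it, and the second through control 2 and the dmPGE2+APAP livers. The Scp2 and Nr1h4 values of this comparison are therefore descriptions, also the one without dmPGE2+APAP 2.

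**Figure D5:**
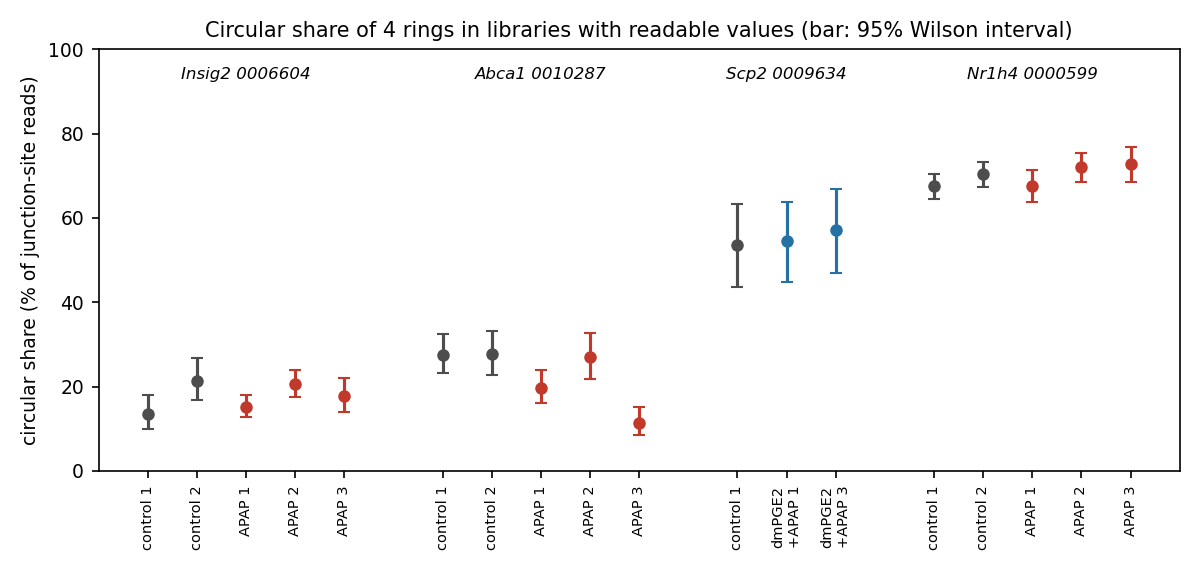
Circular share (y axis, percentage of back-splice plus non-junction reads) of 4 rings in the libraries whose values could be read, on the x axis; points are single libraries coloured by group and bars are 95% Wilson intervals. The main Nr1h4 ring lies at 67.5% to 72.8%, the Scp2 ring novel_circ_0009634 at 53.7% to 57.1%, and the main Insig2 and Abca1 rings at 11.4% to 27.8%.

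Other genes of the 4 pathways were read from lists. Of 36 genes of SREBP control and cholesterol synthesis, 13 had a circRNA and 8 were tested. None of the 8 was called in any comparison by edgeR, DESeq2 or limma-voom, and 0 had an unadjusted edgeR p under 0.05. Their median log2 fold change was 0.62 in dmPGE2+APAP against APAP and 0.54 against control, beside 0.03 and 0.20 over all hosts. In the first comparison Mbtps1, the protease that first cuts SREBP, was at 1.64 (SE 1.25, edgeR adjusted p = 1.00), with at most 29 reads in a library.

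Of 36 genes of bile acid synthesis, transport and FXR signalling, 20 had a circRNA, 13 were tested and none was called by edgeR. DESeq2 called 1 of the 13 in APAP against control, where 2 had an unadjusted edgeR p under 0.05, and no other call was made by DESeq2 or limma-voom. The median was 0.41 in dmPGE2+APAP against APAP and 0.08 against control. Slco1b2, which takes organic anions and bile acids up into hepatocytes, had a mean of 3615 CPM, beside 4922 CPM for Nr1h4. Its log2 fold changes were 0.42 (SE 0.25, edgeR adjusted p = 1.00) and -0.42 (SE 0.26, edgeR adjusted p = 1.00). Cyp2c70, which makes muricholic acids in mice, gave 0.41 (SE 0.30) and -0.51 (SE 0.31), and Abcc2, a canalicular export pump, gave -0.01 (SE 0.27) and -0.03 (SE 0.27), with edgeR adjusted p = 1.00 for all. In APAP against control the median was -0.22 beside 0.15 over all hosts, with Slco1b2 at -0.84 (SE 0.26) and Cyp2c70 at -0.93 (SE 0.32), neither called by edgeR.

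Of 42 genes of cholesterol efflux, lipoproteins and sterol carriage, 14 were tested, none was called by edgeR, DESeq2 or limma-voom, and 1 and 2 had an unadjusted edgeR p under 0.05 in the last 2 comparisons. The medians were -0.06 in dmPGE2+APAP against APAP and 0.08 against control. Gramd1c, a member of the family that carries sterol from the plasma membrane to the endoplasmic reticulum, had the highest mean, 7259 CPM, and log2 fold changes of -0.05 (SE 0.21) and -0.34 (SE 0.21). Abca6, an ABC transporter of the same subfamily as Abca1, gave -0.15 (SE 0.46) and 0.29 (SE 0.49), and Osbpl1a, an oxysterol-binding protein relative, gave 0.15 (SE 0.58) and 0.60 (SE 0.61). Of 34 genes of peroxisomal beta-oxidation, the pathway of the SCPx thiolase, 11 were tested and none was called by these tools, with 1 at an unadjusted edgeR p under 0.05, in dmPGE2+APAP against APAP. The medians were -0.14 and 0.07. Acbd5, a peroxisomal membrane protein, gave -0.03 (SE 0.33) and 0.07 (SE 0.34), the transporter Abcd3 gave 0.09 (SE 0.37) and -0.47 (SE 0.38), and Hsdl2 gave 0.47 (SE 0.50) and 0.36 (SE 0.52).

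The hosts whose summed level was most like each member's were taken by Pearson's r of log2 CPM over the 8 libraries other than control 3, among 1168 host genes with reads in all 8. The libraries share their groups and differ in depth, and the highest of 1168 values of r over 8 points is high by selection, so these are descriptions. For Insig2 they were St3gal5 (r = 0.93), Fam120a (0.91) and C2cd2 (0.90). For Nr1h4 they were Tnrc6a (0.95), Mto1 (0.92) and Lima1 (0.92). For Scp2 they were Rbbp4 (0.94), Upp2 (0.92) and Marf1 (0.89), and for Abca1 Fkbp5 (0.93), Spata13 (0.89) and Lrp6 (0.89). Many of these depended on leaving out control 3. Over all 9 libraries r was -0.59 for Rbbp4 and 0.45 for Upp2 with Scp2, 0.38 for Tnrc6a with Nr1h4, and -0.10 for Fkbp5, 0.24 for Spata13 and -0.15 for Lrp6 with Abca1. The other 6 had r between 0.76 (Fam120a with Insig2) and 0.99 (Marf1 with Scp2). Among the 4 hosts r over the 8 libraries ran from -0.59 (Insig2 and Nr1h4) to 0.50 (Scp2 and Abca1). With control 3 the latter was -0.22, and Insig2 with Scp2 went from -0.06 to 0.59.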

How the data were processed

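Back-splice reads were taken as the unscaled counts per circRNA and library that the authors deposited. The 9 TPM columns beside them were not used. HISAT2 and the builds GRCm38 and mm10 are listed in the submitters' processing notes, and the circRNA caller is not given in the sources used here. Control columns are numbered, but no label ties those numbers to samples. They were assigned to the control group because every other column matched a sample's title. Deposited lists of non-junction reads with 3-digit items had become single numbers. They were split into 3-digit items, assuming that every item has 3 digits. The same rule, applied to 16 back-splice lists held as numbers, gave 76 items, 0 of which differed from the count columns. Over the 4 hosts, 12 lists were text, 17 were split and 13 were lost.

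Counts of hosts and rings with at least 5 reads in at least 3 libraries were fitted with edgeR 4.0.16 (R 4.3.3, TMM, quasi-likelihood, all 9 libraries, Benjamini-Hochberg threshold 0.05), and changes in ring use with diffSpliceDGE. DESeq2 1.42.0 and limma 3.58.1 were alternatives, and the fits were tested on simulated data. Members, gene lists and tests were chosen with earlier results of these data known. Named were each host's main ring, every ring past the filter, any ring with 20 reads in a library, 3 tested genes per list by mean CPM (plus any called) and the 3 hosts most like each member. Intervals of shares are Wilson 95%, and those of log2 fold changes are 1.96 SE to either side. Values of some single genes of the lists are not reported here.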

Additional observations from a re-analysis of the deposited data

How the results depend on the processing

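All host sums of the members in dmPGE2+APAP against APAP and against control kept their side of the threshold under every alternative run, and kept their direction except Nr1h4 against APAP, which ran from -0.021 without APAP 1 to 0.17 without APAP 3. The main Nr1h4 ring against control, near 0, became positive with no filter (0.0081) and ran from -0.16 without control 3 to 0.12 without control 2. Called hosts in APAP against control numbered 8, and 2 with limma-voom and 4 with a filter of 10 reads, or 4 to 8 leaving out 1 library. In dmPGE2+APAP against APAP they numbered 3, and 1 with DESeq2, 0 with limma-voom, 6 with no filter and 5 without control 3 over hosts with reads in all 8 other libraries, or 0 to 6 leaving out 1 library. Against control they numbered 4, and 1 with DESeq2, 1 with limma-voom, 2 with a filter of 10 reads and 2 without control 3 over hosts with reads in all 8 others, or 2 to 6 leaving out 1 library. Called circRNAs in APAP against control numbered 6, and 12 without TMM, 14 with DESeq2 and 2 with a filter of 10 reads, or 3 to 10 leaving out 1 library. In dmPGE2+APAP against APAP they numbered 3, and 0 with DESeq2, 0 with limma-voom, 9 with no filter and 1 with a filter of 10 reads, or 1 to 3 leaving out 1 library. Against control they numbered 5, and 10 without TMM, 1 with DESeq2, 2 with limma-voom, 12 with no filter, 3 with a filter of 10 reads and 1 without control 3 over rings with reads in all 8 others, or 4 to 8 leaving out 1 library. Hosts called for ring use numbered 0, and 0 to 1, 0 to 2 and 0 to 1 in the 3 comparisons leaving out 1 library. Without TMM the calls split, higher to lower, 7 to 5 against 6 to 2 for hosts and 6 to 6 against 4 to 2 for circRNAs in APAP against control, 1 to 3 against 0 to 3 for hosts in dmPGE2+APAP against APAP, and 4 to 6 against 3 to 2 for circRNAs in dmPGE2+APAP against control. The cause of these differences was not tested. The variant without control 3 over 8 complete libraries was chosen after seeing the data. TMM moved the median of all circRNAs in dmPGE2+APAP against control from 0.13 to 0.24.

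Replicate numbers link dmPGE2+APAP and APAP samples by label only. Deviations of 1169 host genes from their group means were correlated between samples of the 2 groups. Same-numbered samples gave 0.001, 0.039 and -0.004, and differently numbered ones ran from -0.063 to 0.062. With the replicate block, 8 hosts and 6 circRNAs were called in that comparison. No paired analysis was run against control, because no label ties the numbers of the control columns to samples. The test of circular share across groups, with its alternatives, was not run, because the non-junction values of the main rings could be read in at most 5 libraries, none from dmPGE2+APAP.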
